A study of Mus musculus with 12 samples.

Results

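The mitochondrial genome transcripts and a set of nuclear genes that copy, read and process that genome were followed in the hippocampus of mice with and without an induced deletion of Tet3, an enzyme that oxidises methylated cytosine in DNA. The members were all 37 genes whose symbol begins with mt- and 24 nuclear genes named one by one, 61 genes of 31766 listed in either of the deposited tables. The 37 were 13 messengers, 2 ribosomal RNAs and 22 transfer RNAs. All mice were homozygous for a floxed Tet3 allele kept on C57BL/6N. The conditional knockout mice (cKO, Tet3 fl/fl; Camk2a-CreERT2) also carried 1 copy of a tamoxifen-inducible Cre recombinase from a B6;129S6 line, under the promoter of Camk2a, a gene of excitatory neurons in the forebrain, so other cell types in the tissue were not targeted. Control mice (Tet3 fl/fl) lacked Cre. The labels give tamoxifen for both genotypes, 50 mg/kg into the abdomen from 6 weeks of age, with 2 injections a day in a pair of 5-day courses that were 7 days apart. Dorsal and ventral hippocampus were dissected from adults and read by 3′ messenger RNA sequencing (QuantSeq), which yields a tag near the polyadenylated end of a transcript. There were 3 samples in each of 4 groups, control and cKO of each region, 12 in all, named here by the number in their labels. The labels do not say whether a shared number marks 1 animal or whether the samples are separate animals, so p-values measure the spread between these samples.

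Mammalian mitochondrial DNA is a small circle transcribed from both strands into long precursors. The transfer RNAs that lie between the other genes are cut out of these precursors, which frees the messengers and ribosomal RNAs, and most messengers then receive short poly(A) tails. The messengers encode core subunits of respiratory complexes I, III and IV and of ATP synthase, on which neurons depend for most of their ATP. All proteins of the copying, reading and processing machinery come from nuclear genes, LRPPRC with its partner SLIRP being the best known stabiliser of the messengers.

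Samples had total counts of 5.12 to 15.9 M (megacounts), summed over 3 sequencing runs, or over 2 runs in dorsal cKO 64, and levels are given as CPM, a gene's counts divided by the sample's total in M. Tet3 was at 33.3 ± 4.25 CPM (SD, n = 3) in dorsal control, 38.7 ± 5.39 in dorsal cKO, 29.7 ± 5.52 in ventral control and 30.4 ± 5.00 in ventral cKO. The labels do not give the deleted part of Tet3, and a 3′ tag outside it checks nothing. None of the 10 hippocampus markers or 8 excitatory neuron markers was at 0 in any group. The same held for the 9 thalamus markers, which summed to 166.0 to 317.4 CPM over the 12 samples. Detection alone therefore cannot tell the labelled tissue from its neighbours. The hippocampus markers summed to 1446.1 to 1902.1 CPM and the excitatory neuron markers to 7156.6 to 9345.7 CPM over the 12 samples. Choroid plexus transcripts (12 genes) varied most, with 5044.5 CPM in dorsal control 49, 3198.4 in dorsal cKO 64 and 266.5 to 463.8 in the other 4 dorsal samples. In ventral hippocampus they summed to 3325.7 to 4665.5 CPM in controls against 212.8, 2597.8 and 177.0 CPM in cKO. Interneuron markers (7 genes) summed to 887.3 to 942.4 CPM in dorsal control and 788.4 to 872.9 in dorsal cKO, without overlap. Of these 7, 3 were lower and 0 higher in dorsal at an unadjusted p under 0.05 in edgeR, against 2.77% and 2.13% of all genes. Oligodendrocyte markers were higher in dorsal cKO in 7 and lower in 1 of 8, with overlapping sums. Ependymal markers were higher in dorsal cKO in 6 of 6 tested and lower in ventral cKO in 6 of 6 tested. Markers of the targeted excitatory neurons were higher in ventral cKO in 8 of 8 (median 0.16) and positive in the interaction in 8 of 8 (median 0.16), with 4 lower and 4 higher in dorsal cKO. At an unadjusted p under 0.05 in edgeR, 2 of the 8 were lower and 1 higher in dorsal, against 2.77% and 2.13% of all genes. In ventral 0 were lower and 1 higher, against 3.43% and 3.8%. For the interaction 2 were positive and 0 negative, against 5.01% and 2.95%. Camk2a itself was at -0.32 ± 0.13 (SE, log2 fold change) in dorsal and 0.31 ± 0.14 in ventral cKO, with overlapping groups in both. The part of these cell types in the members' values was not tested.

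Part of the mitochondrial genome also exists as a letter-for-letter copy in nuclear DNA, and this bears on which members can be counted. On chromosome 1 (GRCm38) the pseudogenes Gm28439, Gm28438, Gm28437, Gm10925 and Gm28661 matched mt-Nd4 (its first 876 bases), mt-Nd3, mt-Co3, mt-Atp6 and mt-Co2 with 0 mismatches, and Gm29216 matched bases 1063 to 1545 of mt-Co1 with 1 mismatch, A1066T, counted from the start of mt-Co1 and with the mitochondrial base first. A second set on chromosome 2, Gm13341, Gm13340 and Gm13339, had 16 mismatches and 1 gap over 672 bases of mt-Co2, 37 over 1545 bases of mt-Co1 and 17 over 510 bases of mt-Nd2. The 75 bases nearest the 3′ end of 3 of these pairs are shown because that is where a tag is read, with bases that differ from the mitochondrial transcript in capitals.
mt-Atp6: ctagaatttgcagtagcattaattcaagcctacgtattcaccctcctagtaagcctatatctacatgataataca
Gm10925: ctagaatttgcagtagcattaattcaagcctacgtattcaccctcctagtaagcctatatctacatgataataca
mt-Co2: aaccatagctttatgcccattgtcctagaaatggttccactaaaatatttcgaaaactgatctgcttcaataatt
Gm28661: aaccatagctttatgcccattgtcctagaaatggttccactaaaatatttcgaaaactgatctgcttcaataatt
Gm13341: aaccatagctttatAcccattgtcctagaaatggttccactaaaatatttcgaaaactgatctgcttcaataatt
mt-Co1: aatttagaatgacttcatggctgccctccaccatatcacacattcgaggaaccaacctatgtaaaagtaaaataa
Gm29216: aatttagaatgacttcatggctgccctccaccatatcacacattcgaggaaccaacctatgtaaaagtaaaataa
Gm13340: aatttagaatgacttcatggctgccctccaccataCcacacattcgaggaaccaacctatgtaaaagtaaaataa
A tag from these stretches that covers no capital base cannot be assigned from its letters alone. One that covers a capital base differs there from the mitochondrial transcript. By contrast, the last 75 bases of mt-Nd5 and mt-Cytb, 2 members of the main results, were as a whole found in no annotated nuclear transcript.
mt-Nd5: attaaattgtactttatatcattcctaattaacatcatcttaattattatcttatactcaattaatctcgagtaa
mt-Cytb: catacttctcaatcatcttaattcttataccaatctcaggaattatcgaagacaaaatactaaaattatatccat

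Every window of 50 bases of the mitochondrial transcripts was searched in all GENCODE M21 transcripts of nuclear genes. Of the last 250 windows of each transcript (all windows in mt-Nd4l, which has 248), 100% were shared for mt-Co1 and mt-Co2, 99.6% for mt-Co3, 98.8% for mt-Atp6, mt-Nd3 and mt-Nd4l, 32% for mt-Nd2 and 2% for mt-Nd5. The share was 0% for mt-Rnr1, mt-Rnr2, mt-Nd1, mt-Nd4, mt-Nd6, mt-Cytb and mt-Atp8, although mt-Atp8 lies between copied genes in the mitochondrial genome. The 7 messengers from mt-Co1 to mt-Nd4l (mitochondrial positions 5328 to 10173) are called the copied stretch below. Their levels depended on the sequencing run: the pooled level in run 1 over that in run 3 was 5.01 for mt-Co2, 5.59 for mt-Atp6, 10.7 for mt-Co3, 9.99 for mt-Atp8 and 19.7 for mt-Nd4l, but 1.76 for mt-Nd3 and 1.03 for mt-Co1. The median over the 7 was 5.59. For the other 8 messengers and rRNAs it ranged from 0.989 to 1.26, and over all 16414 genes tested in the 12 samples the 5th and 95th percentiles were 0.667 and 1.39. The run dependence was seen in every sample, with mt-Atp6 at 4.45 to 6.50 times its run 3 level in run 1. It was not confined to the copied stretch. The transfer RNAs mt-Ti and mt-Tq lie outside it (mitochondrial positions 3706 to 3774 and 3772 to 3842) and shared 0% of their windows. Their pooled ratios were 23.2 and 10.7, on low counts. Run 3 gave 75.3% of the counts of dorsal cKO 64 and 37.6 to 67.0% in the other 11 samples, so summed levels of the copied stretch mix runs unequally. For alignment and counting settings of single runs, nothing is given in the sources, and their part was not tested.

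**Figure D1:**
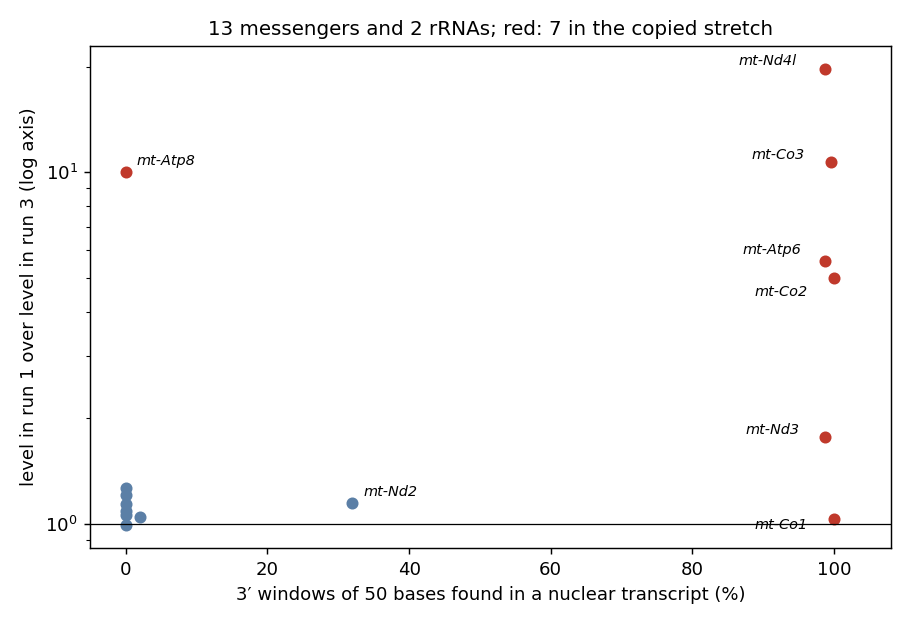
Share of the 3′-most windows of 50 bases that occur in a transcript of a nuclear gene (x axis, percent) against the level in run 1 divided by that in run 3 (y axis, log scale), 1 point for each of 13 messengers and 2 rRNAs, pooled over 12 samples. The blue points lie between 0.989 and 1.26, and the red points of the copied stretch reach 19.7, with mt-Co1 at 1.03.

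**Figure D2:**
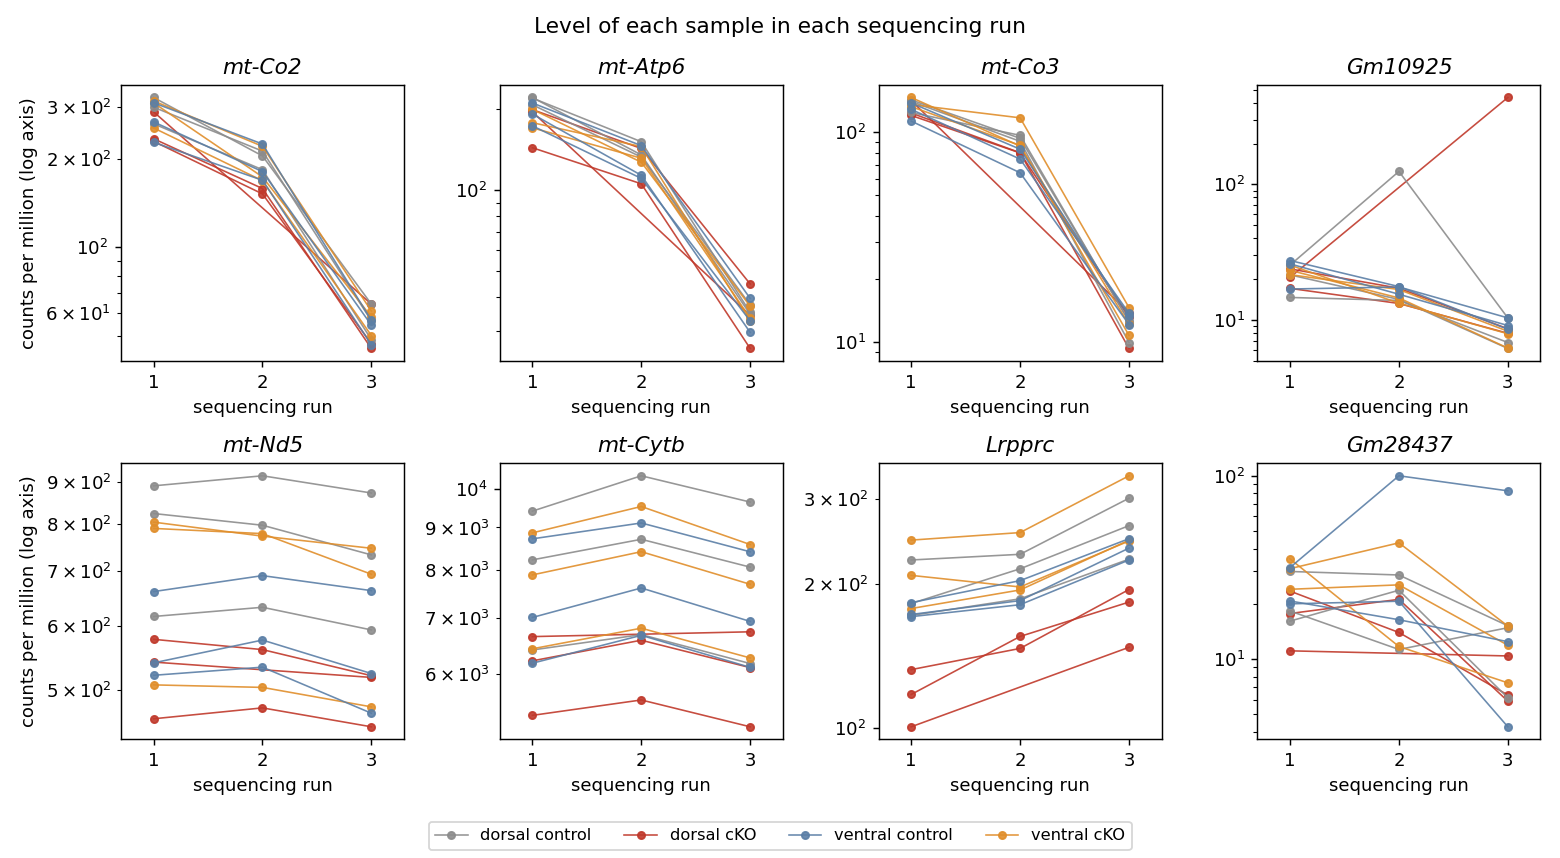
Level (CPM, log axis) of each sample in each sequencing run, 1 line per sample coloured by group, for 6 members and 2 nuclear pseudogenes; dorsal cKO 64 has no run 2. mt-Co2, mt-Atp6 and mt-Co3 drop in run 3 in every sample, mt-Nd5 and mt-Cytb stay level, Lrpprc is higher in run 3, and single points of Gm10925 and Gm28437 stand apart.

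Lrpprc was lower in run 1 than in run 3 in every sample, with a pooled run 1 level of 0.718 of that in run 3. This lies between the 5th and 95th percentiles over all 16414 genes, 0.667 and 1.39. The nuclear pseudogenes had single runs far from the rest. Gm10925 was at 438.2 CPM in run 3 of dorsal cKO 64 and 124.6 CPM in run 2 of dorsal control 71, against 6.13 to 27.4 CPM in all other runs. Gm28437 was at 99.9 and 82.7 CPM in runs 2 and 3 of ventral control 49, against 4.26 to 43 CPM elsewhere.

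All 13 messengers and both rRNAs were listed in both tables. For the genotype comparisons 50 members passed the filter on low counts in dorsal and 46 in ventral hippocampus. Those left out in dorsal were 9 transfer RNAs, Slirp and Tfb1m; in ventral they were mt-Atp8, 12 transfer RNAs, Slirp and Tfb1m. Slirp, whose product binds LRPPRC, was at 0 to 0.968 CPM, and its annotated 3′ end lies inside an exon of Snw1 on the opposite strand. Tfb1m, which methylates the small rRNA, was at 0.175 to 1.89 CPM. Mitochondrial tags made up 3.34 to 4.83% of counts, and mt-Rnr2, the large rRNA, alone gave 36.6 to 47.8% of them. Next came mt-Cytb (cytochrome b of complex III) with 14.6 to 21.5%, mt-Nd4 with 11.3 to 15.5% and mt-Rnr1, the small rRNA, with 8.29 to 10.96%. These are shares of tags and not of molecules.

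The first comparison asked whether the members differed between dorsal cKO and dorsal control. All 15 messengers and rRNAs were lower in cKO on the log2 scale, by a median of -0.46, against a median of 0.00 over the 15692 genes tested. None passed an adjusted p of 0.05 in edgeR's quasi-likelihood test with Benjamini-Hochberg adjustment, and neither did any other gene (0% of all genes, lowest adjusted p = 0.582). At an unadjusted p under 0.05, 12 of the 15 were lower and 0 higher, and with Lrpprc and mt-Te it was 14 of the 50 members tested, against 2.77% of all genes lower and 2.13% higher. These transcripts share precursors, so they are not 15 separate observations. With bulk tissue, fewer cells of a type and less RNA per cell cannot be told apart.

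Lrpprc (ENSMUSG00000024120, chromosome 17, 84705247 to 84790789, minus strand) had the lowest p of the members, and no other gene's exon lies over its 3′ end. It was at 229.5, 201.6 and 256.4 CPM in dorsal controls 41, 49 and 71 and at 164.7, 158.2 and 135.6 CPM in dorsal cKO 40, 43 and 64. Every cKO sample lay below every control. The log2 fold change was -0.62 ± 0.11 (SE), a fold of 0.653, with an unadjusted p of 5.25e-05 and an adjusted p of 0.582 in edgeR. It was -0.74, -0.51 and -0.63 within runs 1, 2 and 3, the run 2 value resting on 2 cKO samples.

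Among the subunits of complex I, mt-Nd5 (mitochondrial positions 11742 to 13565) stood at 773.6, 612.5 and 896.3 CPM in dorsal controls 41, 49 and 71 and at 546.6, 463.5 and 524.1 CPM in dorsal cKO 40, 43 and 64. The groups did not overlap, and the log2 fold change was -0.61 ± 0.13, with -0.60, -0.62 and -0.60 within the 3 runs. mt-Nd2 was at 2024.2, 1725.5 and 1937.6 CPM in controls and 1471.1, 1407.6 and 1446.8 CPM in cKO (-0.43 ± 0.09). Its cKO samples lay within a narrow range below all controls. mt-Nd4 was at 6480.7, 5021.2 and 6634.2 against 4130.1, 4766.9 and 4687.2 CPM (-0.46 ± 0.11). mt-Nd1 was at 2718.3, 2194.4 and 3055.7 against 2042.2, 1932.5 and 2209.5 CPM (-0.40 ± 0.12), and here control 49 lay just below cKO 64. mt-Nd6, the messenger encoded on the other strand (13552 to 14070), was at 986.2, 779.9 and 1290.2 against 747.3, 558.8 and 733.8 CPM (-0.62 ± 0.16). No source used here gives the strand setting of the counting, so mt-Nd6 tags and tags of the opposite strand running on from mt-Nd5 cannot be told apart. The ratio of the mt-Nd6 count to the mt-Nd5 count was 1.33 ± 0.0955 in dorsal control and 1.32 ± 0.104 in dorsal cKO.

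The messengers of the other complexes went the same way. mt-Cytb was at 8296.9, 6429.1 and 9999.4 CPM in dorsal controls and 6301.5, 5386.0 and 6722.4 CPM in cKO, a log2 fold change of -0.47 ± 0.14 with overlapping groups, as control 49 lay below cKO 64. mt-Co1, the catalytic subunit of complex IV, was at 830.1, 734.2 and 940.2 against 657.1, 567.3 and 651.2 CPM (-0.46 ± 0.11), without overlap. It belongs to the copied stretch, with 100% of its last 250 windows shared. Of the other copied messengers, mt-Co2 (-0.34 ± 0.10), mt-Co3 (-0.27 ± 0.12) and mt-Nd3 (-0.50 ± 0.19) had unadjusted p of 0.00371, 0.0343 and 0.0205 in edgeR. Within runs 1, 2 and 3, mt-Co2 was at -0.28, -0.39 and -0.15, and mt-Co3 at -0.13, -0.26 and 0.01. Without dorsal control 71, mt-Nd3 was at -0.26, mt-Cytb at -0.29 and mt-Nd6 at -0.41, and without dorsal cKO 64 mt-Co3 was at -0.16. mt-Atp6 (-0.28 ± 0.14), mt-Atp8 (-0.77 ± 0.41) and mt-Nd4l (-0.52 ± 0.38) did not pass an unadjusted p of 0.05, and mt-Atp8 and mt-Nd4l stood at no more than 2.45 CPM in any sample.

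The rRNAs differed least. mt-Rnr1 was at 4755.8, 4310.1 and 4909.3 CPM in dorsal controls and 3951.3, 3784.0 and 4175.7 CPM in cKO (-0.27 ± 0.09). mt-Rnr2 was at 19708.5, 17934.4 and 18105.6 against 16164.3, 17676.6 and 16604.3 CPM (-0.18 ± 0.08, unadjusted p = 0.0498 in edgeR). Both were below all controls in all cKO samples, with the nearest pair of mt-Rnr2 values close together. In all, 10 of the 15 messengers and rRNAs and 13 of the 50 members tested had every cKO sample below every control, against 3.56% of all genes, and 0 had every cKO sample above, against 7.82%. Over the 7 transcripts outside the copied stretch, mt-Nd4 left out because its first part is copied, the median log2 fold change was -0.43. That was the value of mt-Nd2, which was kept although 32% of its last 250 windows were shared, against 0% for mt-Nd4. Without dorsal control 49 and dorsal cKO 64, the samples with high choroid plexus transcripts, the median over the 15 was -0.55. In that fit 12 members were lower at an unadjusted p under 0.05, and 10 genes passed an adjusted p of 0.05 in edgeR, among them Lrpprc, mt-Nd5, mt-Nd4, mt-Nd6 and mt-Cytb. Without dorsal control 49 alone, 25 genes passed, and without dorsal control 71 the median was -0.28.

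**Figure D3:**
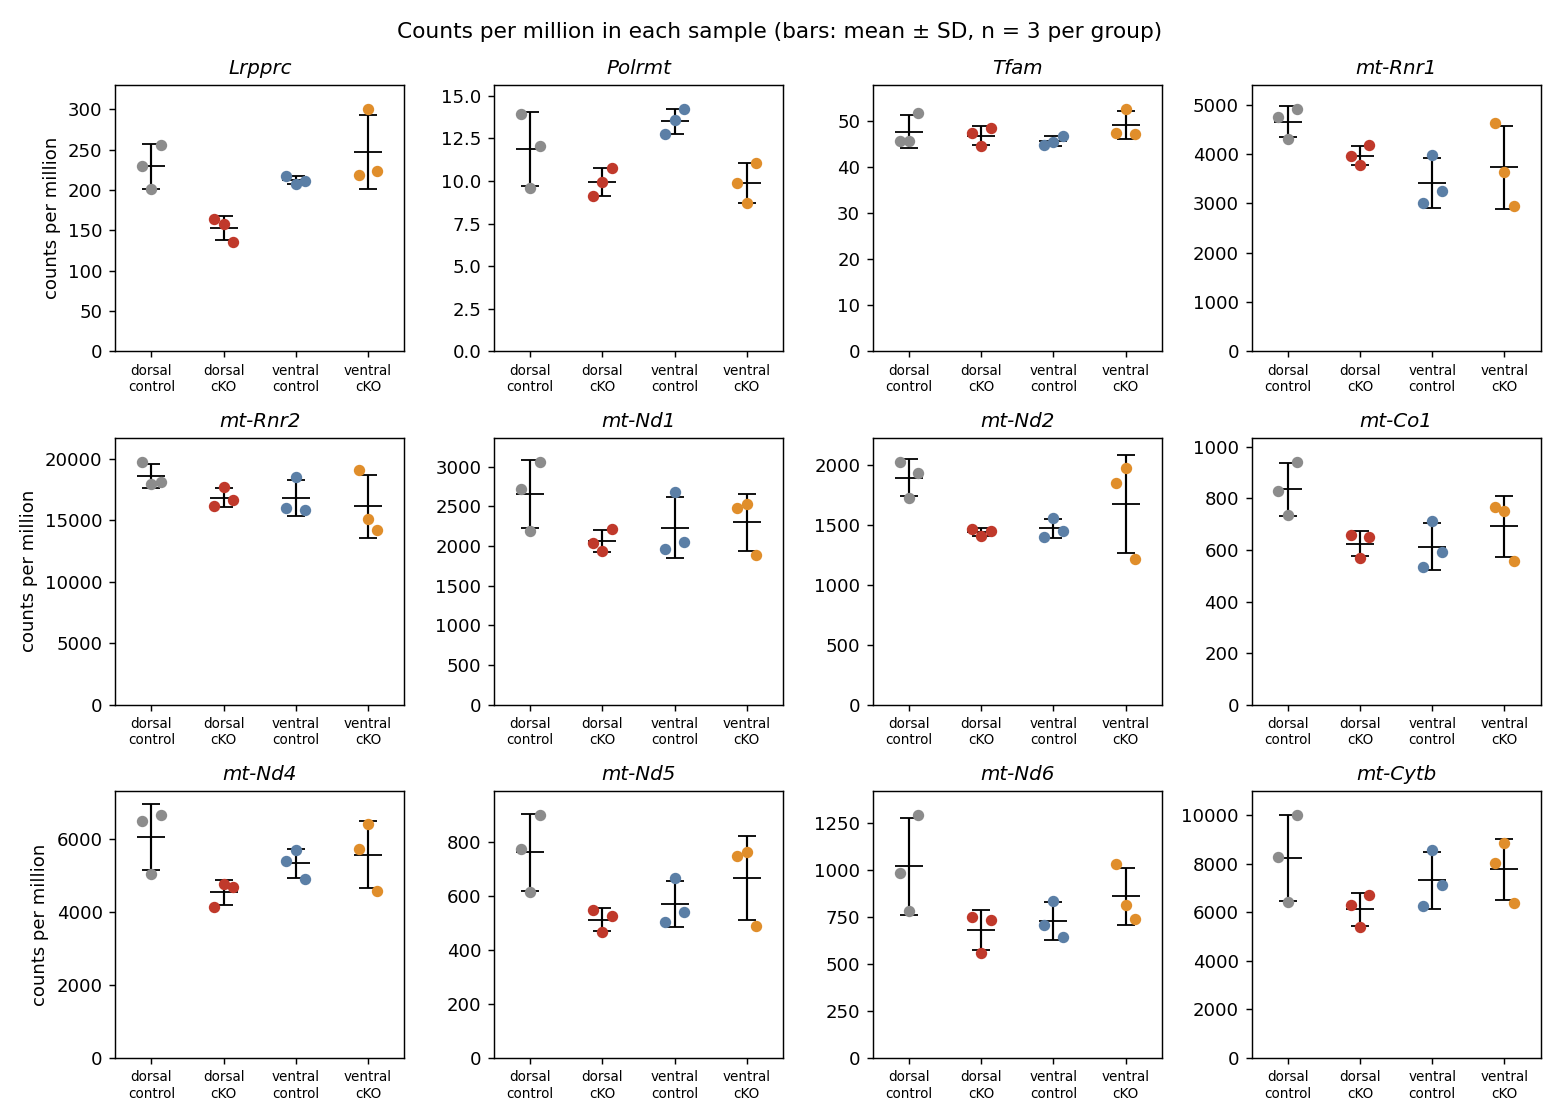
Levels of 12 members (CPM) in each sample, by group, with the mean and SD of 3 samples; every axis starts at 0. For Lrpprc, mt-Nd2, mt-Co1, mt-Nd4 and mt-Nd5 the 3 dorsal cKO samples lie below the 3 dorsal controls, and the ventral groups overlap except for Lrpprc, Polrmt and Tfam.

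As a share of all counts, mitochondrial tags were at 4.71, 4.02 and 4.83% in dorsal controls 41, 49 and 71 and at 3.64, 3.70 and 3.81% in dorsal cKO 40, 43 and 64. The groups did not overlap and the means differed by -0.800 percentage points, with an exact two-sided permutation p of 0.1, the smallest that 3 against 3 samples allow. The messengers gave 2.18 ± 0.371% of counts in control and 1.63 ± 0.0917% in cKO, and the rRNAs 2.32 ± 0.113% and 2.08 ± 0.0673%. The messenger count per rRNA count was 0.938 ± 0.147 in dorsal control and 0.784 ± 0.0585 in cKO, with an exact permutation p of 0.3. In ventral hippocampus the mitochondrial share was 3.63, 4.36 and 3.67% in controls 41, 49 and 50 and 4.48, 4.12 and 3.34% in cKO 40, 63 and 64, an overlap over nearly the whole range (exact permutation p = 0.9). Adjusted over the 4 such tests, the lowest p was 0.4. Within run 1 the dorsal groups stayed apart, at 4.35 to 5.12% in control against 3.92 to 4.24% in cKO. They also did within run 2, at 4.30 to 5.07% against 3.85 to 3.88%, where cKO had only 2 samples. Within run 3 they overlapped slightly, at 3.66 to 4.42% against 3.35 to 3.67%.

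**Figure D4:**
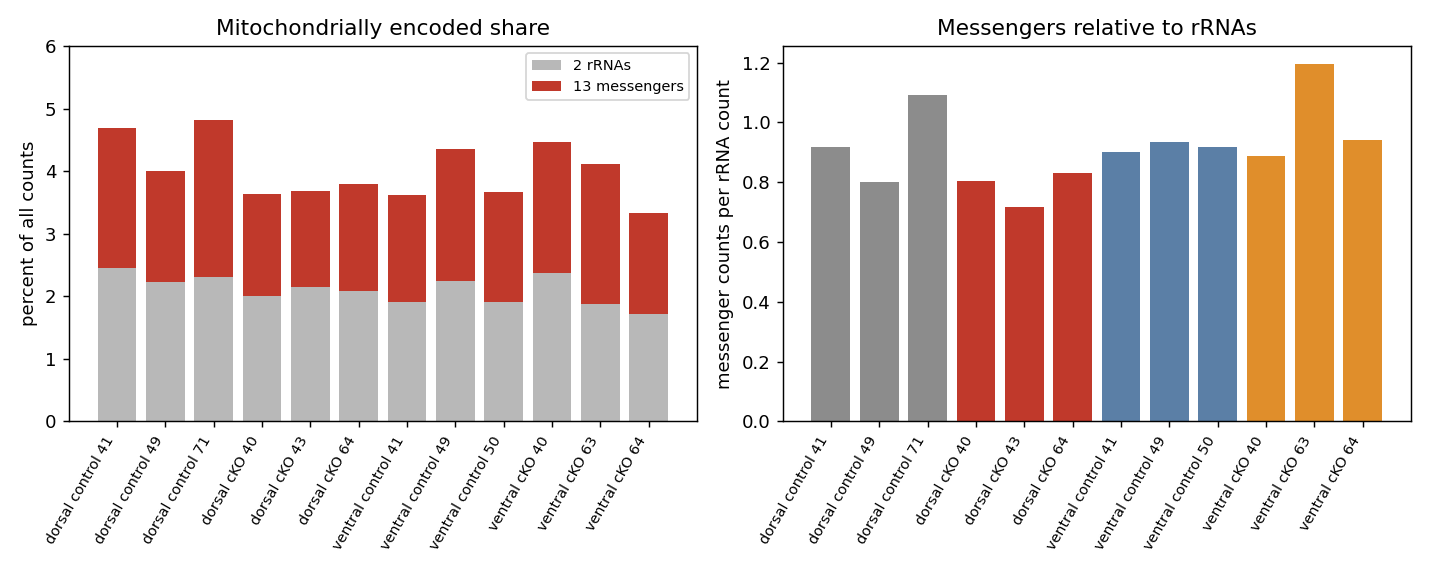
Left, percent of each sample's counts in the 2 rRNAs (grey) and the 13 messengers (red). Right, messenger counts divided by rRNA counts, coloured by group; the dorsal cKO samples sit at 3.64 to 3.81% in total, below the dorsal controls at 4.02 to 4.83%, and the ventral groups overlap.

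Transfer RNAs are short and carry no long poly(A) tail, from which the method primes. Of 13 tested in dorsal hippocampus, 11 were lower and 2 higher, with mt-Te alone at an unadjusted p under 0.05. mt-Te was at 1.67, 2.40 and 1.94 CPM in dorsal controls and 1.32, 0.749 and 0.782 CPM in cKO, a log2 fold change of -1.05 ± 0.39 that rests on few counts. The best covered, mt-Ta, was at 30.5, 31.2 and 31.0 CPM in controls and 35.4, 41.03 and 27.6 CPM in cKO (0.15 ± 0.13). mt-Tw, mt-Ty and mt-Td had counts in 1 or 2 samples each.

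Among the nuclear members Lrpprc stood apart in dorsal hippocampus. The other 21 tested ranged from -0.38 to 0.22, and none had an unadjusted p under 0.05. Over all 22 the median was -0.05, with 13 lower and 9 higher. In the copying and packaging of mitochondrial DNA, Tfam, which coats the DNA and starts transcription, was at 45.8, 45.8 and 51.9 CPM in dorsal controls and 47.5, 44.6 and 48.7 CPM in cKO (-0.07 ± 0.10). Polg, the catalytic subunit of the DNA polymerase, was at 0.17 ± 0.16, its partner Polg2 at 0.02 ± 0.30, and Twnk, the helicase, at 0.22 ± 0.18.

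In transcription, Polrmt, the mitochondrial RNA polymerase, was at 13.9, 9.61 and 12.1 CPM in dorsal controls and 9.12, 9.93 and 10.8 CPM in cKO (-0.30 ± 0.18). The initiation factor Tfb2m was at -0.12 ± 0.21, and the MTERF family members Mterf2, Mterf3 and Mterf4 at 0.06 ± 0.18, -0.12 ± 0.25 and -0.12 ± 0.16. Of the enzymes that cut the precursors, Trmt10c, a subunit of the mitochondrial RNase P, was at -0.38 ± 0.18 (unadjusted p = 0.0518 in edgeR) with overlapping groups. Its partner Hsd17b10 was at 0.13 ± 0.15, and Elac2, which cuts the other end of the transfer RNAs, at -0.16 ± 0.15, although the Elac2 3′ end overlaps an exon of Arhgap44 on the opposite strand. Fastkd5, needed for the messengers that no transfer RNA flanks, was at -0.01 ± 0.18.

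Mtpap, the poly(A) polymerase of mitochondria, was at 0.21 ± 0.16. The degradosome subunits Pnpt1, a nuclease, and Supv3l1, a helicase, were at 0.20 ± 0.21 and -0.10 ± 0.15. The other FASTK family members were between -0.21 (Fastkd1) and 0.08 (Fastkd2), and Fastk, the best expressed of them at 69.8 to 92.4 CPM over the 12 samples, was at -0.06 ± 0.10. None of these differences passed the test, which does not show that the groups were alike. The 3′ ends of Fastk and Mterf4 overlap exons of Slc4a2 and Sned1 on the opposite strand.

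**Figure D5:**
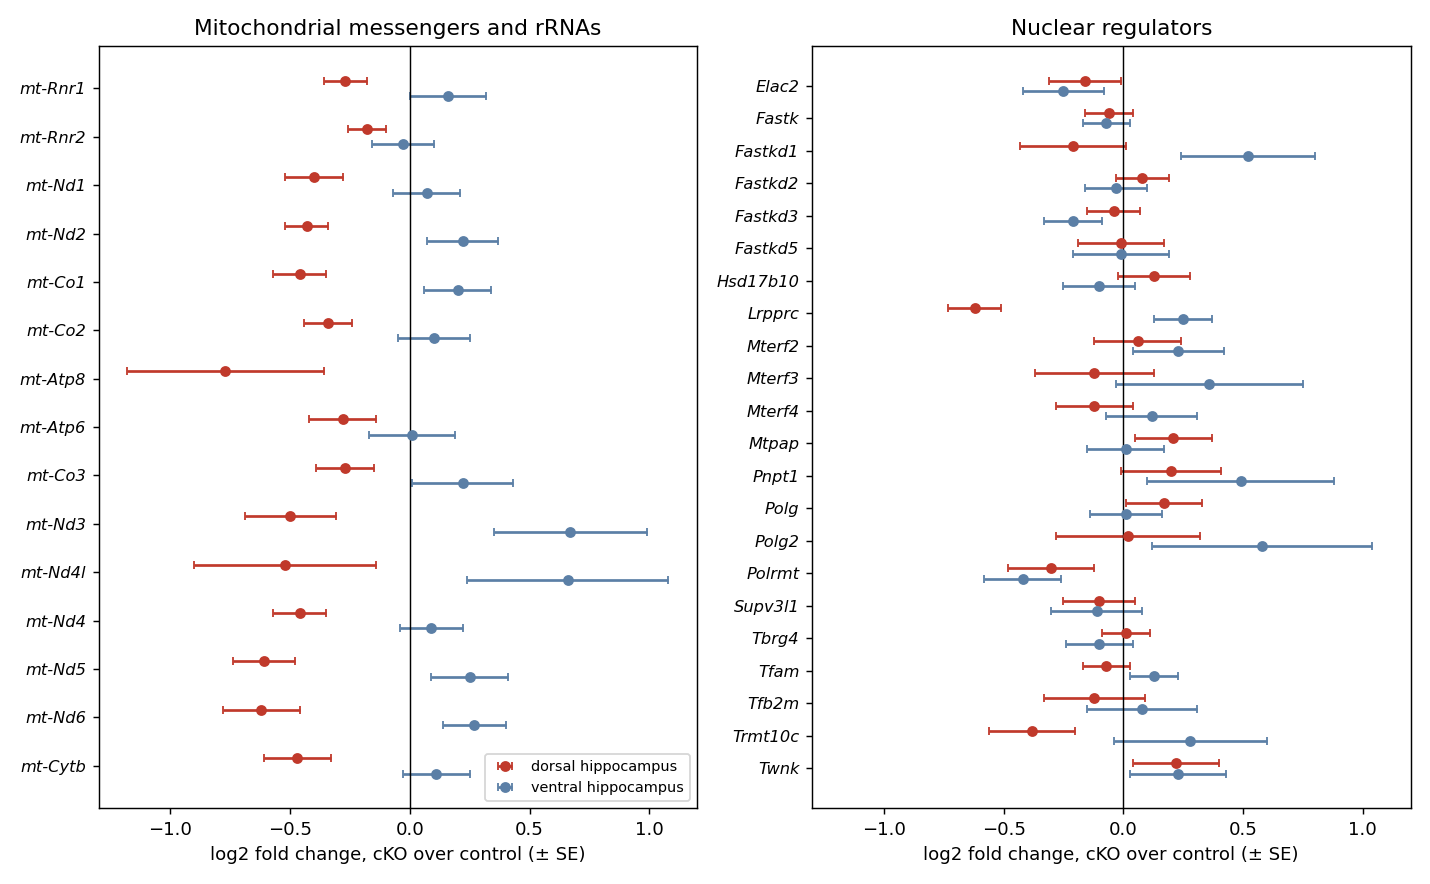
Log2 fold change of cKO over control with its standard error for the 15 messengers and rRNAs (left, in genome order) and the 22 nuclear regulators tested (right), in dorsal (red) and ventral (blue) hippocampus. All 15 red points on the left lie below 0, the blue points lie between -0.03 and 0.67, and on the right Lrpprc at -0.62 is the lowest dorsal point.

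In ventral hippocampus, where the question was the same, most values had the other sign. Of 14 messengers and rRNAs tested, 13 were higher in cKO and 1, mt-Rnr2, was lower, with a median of 0.18 against 0.00 over the 15102 genes tested. None had an unadjusted p under 0.05, and no gene passed an adjusted p of 0.05 in edgeR (0%). None of the 14 had groups that did not overlap. mt-Nd5 was at 500.9, 666.4 and 539.8 CPM in ventral controls 41, 49 and 50 and 744.9, 762.5 and 488.0 CPM in cKO 40, 63 and 64 (0.25 ± 0.16). cKO 40 and 63 lay above all controls and cKO 64 below them. mt-Nd2 showed the same order, at 1403.7, 1559.9 and 1454.1 against 1847.5, 1977.2 and 1212.7 CPM (0.22 ± 0.15). mt-Cytb was at 6278.9, 8577.1 and 7115.9 against 8049.0, 8882.6 and 6406.4 CPM (0.11 ± 0.14), and mt-Nd3 had the largest value, 0.67 ± 0.32, on 9.69 to 39.0 CPM.

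Lrpprc was at 217.4, 208.0 and 211.6 CPM in ventral controls and 218.3, 300.2 and 223.8 CPM in ventral cKO. All cKO samples were above all controls, cKO 40 by a small margin and cKO 63 by a large one, with a log2 fold change of 0.25 ± 0.12 and an adjusted p of 0.697 in edgeR. Polrmt was the only member of the 46 tested with an unadjusted p under 0.05 (0.0198), against 3.43% of all genes lower and 3.8% higher. It was at 12.8, 13.6 and 14.2 CPM in controls and 9.88, 8.71 and 11.1 CPM in cKO, all cKO samples below all controls, a log2 fold change of -0.42 ± 0.16 with an adjusted p of 0.629. Within runs 1 and 3 it was at -0.61 and -0.56 but within run 2 at 0.02. The 22 nuclear members tested ranged from -0.42 to 0.58, with 9 lower and 13 higher. Tfam was at 44.8, 45.6 and 46.9 CPM in controls and 47.6, 52.7 and 47.4 CPM in cKO, all cKO samples above all controls by a small margin (0.13 ± 0.10). Thus 1 of 46 members lay wholly below the controls (8.34% of all genes) and 2 wholly above (4.77%). The choroid plexus sums given above, lower in all ventral cKO samples, moved with the ventral genotype, and their part in these values was not tested.

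The difference between the regions was tested as an interaction, the ventral minus the dorsal log2 fold change, on the same samples as both comparisons above. All 15 messengers and rRNAs had positive values, with a median of 0.59 against -0.01 over 16414 genes. No gene passed an adjusted p of 0.05 in edgeR (0%, lowest adjusted p = 0.125). At an unadjusted p under 0.05, 13 of the 51 members tested were positive and 0 negative, against 5.01% of all genes positive and 2.95% negative. Lrpprc was at 0.86 ± 0.18 (unadjusted p = 0.000143, adjusted p = 0.325), mt-Nd6 at 0.90 ± 0.24 and mt-Nd5 at 0.87 ± 0.23. The others were mt-Co1 (0.66 ± 0.19), mt-Nd2 (0.65 ± 0.20), mt-Nd4 (0.55 ± 0.19), mt-Cytb (0.59 ± 0.23), mt-Nd1 (0.48 ± 0.20), mt-Nd3 (1.18 ± 0.43), mt-Co2 (0.44 ± 0.20), mt-Rnr1 (0.43 ± 0.20), mt-Nd4l (1.19 ± 0.56) and mt-Te (1.44 ± 0.61). The mitochondrial transcripts among them share precursors and are not separate observations. mt-Co1, mt-Co2, mt-Nd3 and mt-Nd4l lie in the copied stretch. mt-Nd4l rests on 5 to 26 counts per sample and mt-Te on 4 to 22. Polrmt, lower on average in both regions, had an interaction of -0.12 ± 0.23. Lrpprc kept its sign within runs 1, 2 and 3, at 1.01, 0.70 and 0.88.

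The last comparison set ventral against dorsal hippocampus over both genotypes. Lrpprc was higher in ventral by 0.30 ± 0.09 on the log2 scale (adjusted p = 0.0320 in edgeR), the only one of 51 members past the threshold, where 6.67% of all genes were higher and 7.43% lower in ventral. This average holds unlike parts, since ventral and dorsal controls stood at 212.4 ± 4.74 and 229.2 ± 27.4 CPM (SD, n = 3) and ventral and dorsal cKO at 247.5 ± 45.8 and 152.8 ± 15.2 CPM. The call was lost in 6 of 12 refits that each left out 1 sample: dorsal control 41 or 49, dorsal cKO 64, ventral control 41 or 50, or ventral cKO 63, where the log2 difference was 0.22. It was also lost within run 2 (0.18, adjusted p = 0.241 in edgeR) and run 3 (0.26, adjusted p = 0.0893), and it held in 16 of all 24 alternatives. Of the messengers and rRNAs the lowest adjusted p was that of mt-Rnr1 (-0.26 ± 0.10, adjusted p = 0.0895), and their median was -0.06 against 0.00 for all genes. Among the nuclear members Mterf2 was at 0.33 ± 0.13 (adjusted p = 0.107) and Trmt10c at -0.35 ± 0.19.

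The nuclear pseudogenes were fitted in the same tables. In dorsal hippocampus Gm13340, the mt-Co1 copy on chromosome 2, was at 8.02, 11.3 and 10.7 CPM in controls and 5.70, 4.87 and 4.89 CPM in cKO, a log2 fold change of -0.97 ± 0.19 (unadjusted p = 0.000178, adjusted p = 0.582 in edgeR). Gm28437 (-0.52 ± 0.20) and Gm13339 (-0.55 ± 0.25) also had an unadjusted p under 0.05. Gm10925 was at 1.82 ± 0.97, with dorsal cKO 64 at 335.0 CPM. The other 5 were Gm28661 (-0.41 ± 0.20), Gm29216 (0.63 ± 0.51), Gm28439 (-0.32 ± 0.27), Gm13341 (-0.23 ± 0.22) and Gm28438 (-0.18 ± 0.48). In ventral hippocampus Gm28661 (-0.40 ± 0.16) alone had an unadjusted p under 0.05. Whether these tags come from nuclear or mitochondrial RNA was not tested.

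Other genes of mitochondrial gene expression were taken from lists without the members, and the background shares given above for each comparison apply to their counts. Of 17 tested genes of mitochondrial DNA maintenance, 1 was lower and 0 higher at an unadjusted p under 0.05 in dorsal hippocampus. That 1 was Ssbp1, which coats single-stranded mitochondrial DNA, at -0.32 ± 0.12 in dorsal and 0.47 ± 0.16 in ventral hippocampus, without overlap of the groups in either. In the interaction 2 of the 17 were positive and 0 negative at that threshold. Of 14 other genes of transcription and RNA processing, 0 passed in either region, and of 24 RNA modification enzymes 1 was lower in dorsal, Mrm2 (-0.36 ± 0.17), and 1 was lower and 1 higher in ventral. Of 20 mitochondrial aminoacyl-tRNA synthetases 0 passed in dorsal and 1, Iars2 (0.74 ± 0.23), was higher in ventral. Of 13 translation factors 0 passed in either region.

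The mitochondrial ribosomal proteins were represented by 79 tested genes, of which 3 were lower and 0 higher in dorsal and 0 lower and 5 higher in ventral hippocampus at an unadjusted p under 0.05, with medians of -0.04 and 0.03. In the interaction 8 of the 79 were positive and 0 negative, against 5.01% and 2.95% of all genes, with a median of 0.06. Mrps28 had the lowest dorsal p of the list, at -0.40 ± 0.13, and was at 1.17 ± 0.39 in ventral. Of 31 genes of abundant mitochondrial proteins (import, matrix enzymes, chaperones, dynamics) 1 was lower and 0 higher in dorsal, with a median of 0.02, and 0 lower and 3 higher in ventral. Hspe1, a chaperonin of the matrix, was the 1 in dorsal (-0.30 ± 0.14), and it was at 0.35 ± 0.11 in ventral. Biogenesis regulators (15 tested in dorsal) had 0 in dorsal and, in ventral, Gabpb1 at 0.56 ± 0.24 and Ppargc1b, a coactivator of mitochondrial biogenesis, at -0.25 ± 0.11. Of 14 tested stress response genes, 1 was higher and 0 lower in each region at an unadjusted p under 0.05 in edgeR. The medians were 0.05 in dorsal and 0.21 in ventral hippocampus. Aldh1l2, a mitochondrial folate enzyme, was the 1 in dorsal, at 1.06 ± 0.31. This rests on few counts, with means of 1.27 CPM in dorsal control and 2.76 CPM in dorsal cKO. Atf4, the transcription factor of that response, was at 0.25 ± 0.10 in ventral. None of the genes of these lists passed an adjusted p of 0.05 in edgeR.

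In the authors' deposited table, whose fit ran over single sequencing runs, 10 members were lower in dorsal cKO at a false discovery rate under 0.05, against 0.425% of the 29407 listed genes lower and 0.139% higher. Runs share a sample, so these rates do not measure the spread between samples. Lrpprc had a log2 fold change of -0.63 and a false discovery rate of 1.23e-08 in the authors' deposited table. With runs summed per sample, its adjusted p was 0.582 in edgeR. The other 9 in the authors' deposited table were mt-Co1, mt-Nd2, mt-Nd5, mt-Nd4, mt-Nd1, mt-Nd6, mt-Rnr1, mt-Cytb and mt-Co2. For ventral hippocampus 0 members passed in the authors' deposited table, where 0.878% of genes were lower and 0.985% higher.

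Promoters were taken from RefSeq (GRCm38.p6), 250 bases before to 50 after the start, for 22 of the 24 nuclear members. These had 24 promoters in all, since Mterf2 and Twnk have more than 1. They held 3 to 42 CpG dinucleotides, with a median of 21 against 7 over all 32851 promoters. TET enzymes act on methylated cytosine, so a CpG count alone does not mark where they act. The 24 CpG of Lrpprc were more than in 80% of all promoters. The promoter of Lrpprc, the member with the lowest dorsal p, is shown with its 24 CpG in capitals (chr17:84790737-84791036, minus strand).
Lrpprc: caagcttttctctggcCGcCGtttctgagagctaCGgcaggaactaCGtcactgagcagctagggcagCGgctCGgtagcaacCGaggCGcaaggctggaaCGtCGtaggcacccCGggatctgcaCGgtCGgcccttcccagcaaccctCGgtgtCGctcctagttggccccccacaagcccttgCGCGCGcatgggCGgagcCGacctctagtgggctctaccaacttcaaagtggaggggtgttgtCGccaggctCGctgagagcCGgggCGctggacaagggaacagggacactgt
Factors of the NRF1 and ETS families are known regulators of nuclear genes for mitochondrial proteins. On both strands, CCGGAAG, an ETS-type core, was found in a promoter of 11 of the 22 genes. Over all promoters, which as a whole hold fewer CpG, the share was 8.86%, counted per promoter and not per gene. An NRF1-type site (GCGCA, any base, GCGC) was found in those of Polrmt and Fastkd3, and in 4.6% of all. CACGTG was found in that of Fastkd1 (7.15% of all). The promoter of Polrmt, the member with the lowest ventral p, holds both kinds and is shown with them in capitals, first the ETS-type core and then 2 overlapping NRF1-type matches, all on the strand opposite to the one printed (chr10:79746532-79746831, minus strand).
Polrmt: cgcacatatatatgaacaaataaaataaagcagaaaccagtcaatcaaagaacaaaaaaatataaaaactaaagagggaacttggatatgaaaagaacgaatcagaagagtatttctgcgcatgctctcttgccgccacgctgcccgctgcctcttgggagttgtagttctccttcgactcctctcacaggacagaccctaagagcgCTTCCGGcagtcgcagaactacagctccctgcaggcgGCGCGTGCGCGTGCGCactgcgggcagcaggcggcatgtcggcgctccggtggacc
A match describes these letters only, and no binding or methylation was measured here.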

How the data were processed

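Counts of QuantSeq reads per gene were deposited by the authors for each sequencing run, as whole numbers that are not normalised. Per the submitters' processing notes, cutadapt, HISAT2, featureCounts and edgeR were used with GRCm38; versions, the annotation release, the strand setting and the treatment of reads with several matches are not given in the sources used here. The same tables hold deposited CPM columns, a scaled signal that was not used, and the authors' log2 fold change and log2 mean level, a likelihood ratio score and p-values with false discovery rates, per the file headers. From the authors' table only the log2 fold changes and false discovery rates are quoted.

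Counts were summed over runs per sample, grouped by label, and fitted with edgeR 4.0.16 (quasi-likelihood test, TMM, filterByExpr, Benjamini-Hochberg over all genes tested) in R 4.3.3. Each region was fitted apart (cKO minus control), and the interaction and region comparisons in 1 fit of 12 samples over the genes in both tables. Standard errors are on the log2 scale. CPM uses plain totals. Shares were compared with exact permutation tests (scipy 1.17.1). The scripts were tested on simulated data. DESeq2 1.42.0, limma-voom 3.58.1, other scalings and filters, single runs and samples left out were tried as alternatives. By the naming rule, every member is accounted for, values per sample are for up to 12 members per comparison by lowest p (unadjusted p under 0.05) and for messengers and rRNAs, and of other genes all nuclear copies and the 2 lowest p per list and genotype comparison could be named. Tfam, mt-Ta, Tet3 and the marker sums were added. The members and lists were chosen with earlier results of these data known. Sequences come from GENCODE M21 transcripts and RefSeq promoters and were compared with biopython 1.88. Shared numbers did not pair the samples: deviations of same-numbered samples correlated at -0.107 to 0.106 over 4 numbers.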

Additional observations from a re-analysis of the deposited data

Results flagged for a closer look

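The genotype difference of Lrpprc is listed here because all 3 dorsal cKO samples lay below all dorsal controls while all 3 ventral cKO samples lay above all ventral controls. Of all genes tested, 3.56% had the first pattern in dorsal and 4.77% the second in ventral hippocampus. The share of genes with both is not given here. Lrpprc was also the member with the lowest dorsal p in these same samples. Its log2 fold change was -0.62 in dorsal and 0.25 in ventral hippocampus. The test of the difference itself gave 0.86 ± 0.18 (SE), with an adjusted p of 0.325 in edgeR, which does not pass the threshold. Over the 24 alternatives with a test the interaction ran from 0.64 to 1.01, with adjusted p from 0.0024 to 0.978, and 2 of them passed: DESeq2 (0.0024) and edgeR with no filter on low counts (0.0338). In ventral hippocampus the margin of cKO 40 over the highest control was small, at 218.3 against 217.4 CPM. Groups of 3 samples were not examined for outlying values.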

How the results depend on the processing

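The median of the messengers and rRNAs kept its sign under all alternatives run, at -0.56 to -0.28 in dorsal (the lowest size without dorsal control 71) and 0.08 to 0.33 in ventral hippocampus when single samples were left out, 0.46 to 0.74 for the interaction and -0.14 to -0.02 for the region, and scaling on nuclear genes gave -0.46 and 0.18 for the genotype medians. The mitochondrial share differed by -1.05 to -0.645 points in dorsal and -0.155 to 0.418 in ventral with single samples left out. Counts of genes past an adjusted p of 0.05 moved most. For dorsal genotype they were 0 in edgeR and limma-voom (434 lower and 335 higher, and 779 genes, at an unadjusted p under 0.05), 16 in DESeq2 (with Lrpprc, mt-Co1, mt-Nd2, mt-Nd4 and mt-Nd5, all lower), 94 with no filter (9 members, all lower: Lrpprc, mt-Co1, mt-Cytb, mt-Nd1, mt-Nd2, mt-Nd3, mt-Nd4, mt-Nd5 and mt-Nd6), 1 in run 1 (Lrpprc, adjusted p = 0.0445), 0 to 25 with a sample left out and 10 without dorsal control 49 and dorsal cKO 64, an alternative chosen after seeing their choroid plexus levels. Without dorsal control 49 alone, 8 members passed, all lower: Lrpprc, mt-Co1, mt-Nd2, mt-Nd5, mt-Nd4, mt-Nd1, mt-Nd6 and mt-Cytb (adjusted p from 0.0206 to 0.0371). For ventral genotype they were 4 in DESeq2, 302 with no filter (mt-Nd3 the only member), 3 in run 1, 4 in run 2 and 0 to 55 with a sample left out (55 without ventral cKO 63). For the interaction they were 27 in DESeq2 (with Lrpprc, adjusted p = 0.0024, and mt-Nd5, 0.0306), 13 with no filter (with Lrpprc, 0.0338), 1 in run 2 and 0 to 4 with a sample left out, and members at an unadjusted p under 0.05 numbered 7 to 15 with a sample left out (7 without dorsal control 71) and 11 to 16 for dorsal genotype. For the region they were 1149 in run 1, 1345 in run 2 and 1838 to 2261 with a sample left out. The cause of these moves was not tested. Reversed values were mt-Co3 in dorsal run 3 (0.01) and Polrmt in ventral run 2 (0.02). With sequencing runs as libraries and run as a term, chosen after seeing the data, the dorsal, ventral and interaction medians were -0.41, 0.20 and 0.60; no calls are counted, because runs share a sample.

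The shared label numbers were checked as a replicate block, though 0 samples correlated best with their own number. With a fixed replicate block on the 4 numbers found in both regions, 6 members were positive in the interaction at an unadjusted p under 0.05, the interaction median was 0.44 and 1398 genes passed for the region, on fewer samples. With the block as a random effect (limma-voom), the interaction median was 0.55.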
